A study of Spirodela polyrhiza with 12 samples.

Results

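In Spirodela polyrhiza, the giant duckweed, 109 of 18099 measured genes had reached at middle temperature a raised level that they held, within limits, at high temperature. The members were chosen from their own expression values, so the ratios that chose them are given as a description and carry no test. Each library's FPKM (fragment abundance corrected for the length of the transcript and the depth of the library) was divided by the median FPKM of the 12316 genes whose FPKM reached 1 in all 12 libraries and multiplied by 15, which gives the scaled FPKM used below. After an offset of 0.5 was added, group means were formed for indoor (I), middle (M) and high (H) temperature. A member had a highest group mean of at least 5, an M/I of at least 3 and an H/M strictly between 1/1.5 and 1.5. Genes with both H/I of at least 16 and H of at least 200 were left out.

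The study sequenced messenger RNA from leaf samples in 12 libraries, 4 each from plants labelled as kept at indoor, middle and high temperature, with the indoor plants as the control. No genotype, strain, age or agent other than temperature is given in the labels, and the sources used here give neither the temperatures in degrees nor the length of exposure. The labels name no separate cultures behind the 4 libraries of a group, and the spread between them may be technical. The total estimated count ran from 23655239 to 32711880 per library.

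Plants exposed to heat raise many transcripts quickly, and the best known of these encode heat shock proteins, which are chaperones that keep other proteins folded, under the control of heat stress transcription factors. Genes differ in the temperature at which their transcripts reach full level, and some of them respond to mild warming already. The deposited files do not pair the identifiers with gene names, so which of the members encode chaperones, transcription factors or other products cannot be said, and the label of leaf tissue was not checked against marker genes. The members are therefore described by identifier, level, temperature course and neighbourhood, and not by role.

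Across the members the typical course was a step between indoor and middle temperature and, as the rule requires, a limited further change in scaled level. The median member had a scaled FPKM of 3.29 in indoor, 17.1 in middle and 14.2 in high plants. The median M/I was 3.68, with quartiles of 3.28 and 4.55 and a highest value of 12.05. Most members stood near the lower limit, since 65 had an M/I under 4, 34 lay from 4 to under 6 and 10 at 6 or above. The median H/I was 3.59, and the members ran from 2.13 to 14.9. Inside the window allowed for H/M, the median was 0.874, and 72 members were lower and 37 higher at high than at middle temperature. Choosing genes for a high M over I favours an H/M below 1. No share of all genes is set beside this split, which is a description.

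**Figure D1:**
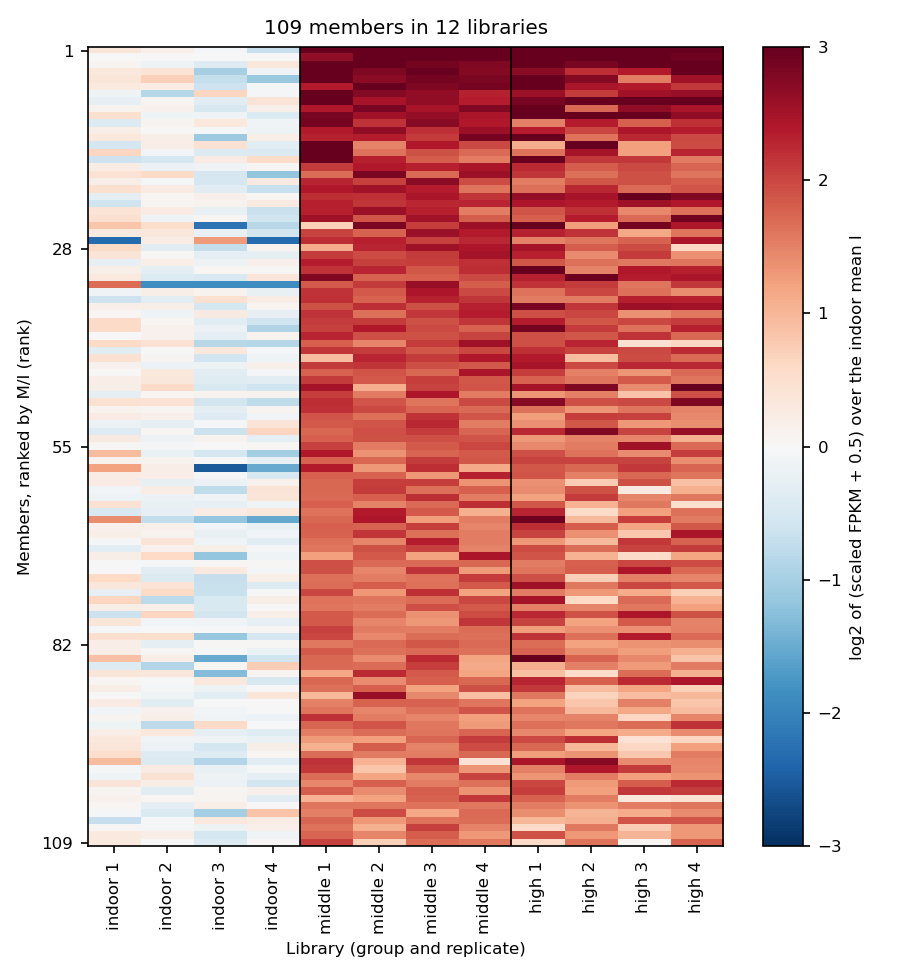
Each row is a member, ranked from the largest M/I at the top, and each column a library; colour gives log2 of (scaled FPKM + 0.5) over the gene's indoor mean I, and values beyond 3 in either direction take the end colour. The 4 middle and 4 high columns are red for nearly all of the 109 members, and a few members, such as Spipo1G0066000.v2 with 1 indoor library far above the other 3, differ strongly between indoor libraries.

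The members were a part of the genes with a higher level at middle than at indoor temperature. Of 11841 genes with a highest group mean of at least 5, 413 had an M/I of at least 3, and the members were 26.4% of these. Another 138 had an H/M of at least 1.5, and 166 had an H/M of 1/1.5 or less. The exclusion for a very high level at high temperature was met by 48 genes, and none of them had an H/M inside the window, so it removed no member. Counted over H/M, these genes numbered 97 below 0.5, 69 from there to 1/1.5, 72 from 1/1.5 to 1, 37 from 1 to 1.5, 16 from 1.5 to 2 and 122 at 2 or above. The window thus lay between a class that was lower again at high temperature and a class that was higher still, with few genes just above its upper limit. The level at indoor temperature is the denominator of M/I, which picked all of these classes, so it is given as a description. Its median was a scaled FPKM of 3.29 for the members, 5.51 for genes above the window and 3.23 for genes below it, against 10.7 for all 15209 genes tested.

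**Figure D2:**
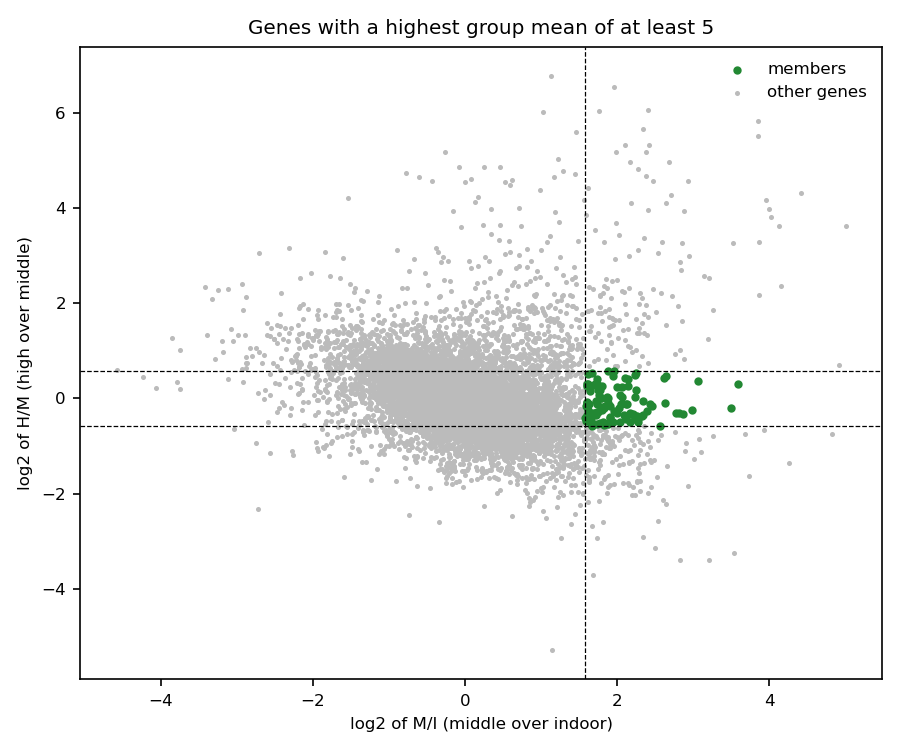
Each point is a gene with a highest group mean of at least 5, with log2 of M/I on the x axis and log2 of H/M on the y axis; the dashed lines mark an M/I of 3 and an H/M of 1.5 and 1/1.5. The 109 members fill the box to the right of the vertical line, and most of them lie close to it.

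The limits of the rule separated genes with almost the same values. Just inside the limit on M/I stood Spipo5G0023100.v2 at 3.00 and Spipo11G0024100.v2 at 3.01. Just outside stood Spipo6G0009800.v2 at 2.996 and Spipo6G0064900.v2 at 2.98. At the upper limit on H/M, Spipo14G0010600.v2 at 1.49 and Spipo4G0005600.v2 at 1.48 were the last members, and Spipo11G0051700.v2 at 1.59 and Spipo1G0099000.v2 at 1.59 the first genes beyond it. At the lower limit the last members were Spipo2G0060400.v2 at 0.669 and Spipo9G0056800.v2 at 0.674, and the first genes beyond it were Spipo4G0097700.v2 at 0.666 and Spipo9G0005200.v2 at 0.665. Spipo9G0056800.v2 was an abundant gene among these, with scaled FPKM of 22.5, 32.05, 37.5 and 28.02 in the indoor libraries, 224, 137, 202 and 160.3 in the middle libraries and 87.1, 155, 105 and 138 in the high libraries. All of its middle and high libraries lay above all of its indoor libraries, while its middle and high libraries overlapped.

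Whether the level was held from middle to high temperature depended on the scaling. The median FPKM of the genes expressed in all libraries was 22.2 ± 0.542 in indoor, 24.04 ± 1.62 in middle and 13.8 ± 1.22 in high plants (SD, n = 4 each). In deposited FPKM the median member was at 4.86 in indoor, 27.5 in middle and 13.04 in high plants. All 109 members had a lower mean deposited FPKM at high than at middle temperature, by a median ratio of 0.496, against 0.568 over all genes tested. The upper limit on scaled H/M and the lower median FPKM of the high libraries left little room for another direction, so this is a description. In deposited FPKM 24 members stayed inside the window of 1.5, and the median ratio of all genes tested also lay below its lower limit of 1/1.5. All 109 members had a higher mean deposited FPKM at high than at indoor temperature, and 76 of the 108 with an indoor FPKM above 0 were at least 2-fold higher. The limits on M/I and H/M together set a lower limit on H/I that left little room for another direction on this scale. No share of all genes is set beside these 2 counts, and they are a description. Every high library lay above every indoor library in deposited FPKM for 75 members, beside 6.58% of all genes tested.

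As a share of all counts the members together held 0.310, 0.276, 0.218 and 0.249% in the indoor libraries, 1.15, 1.12, 1.17 and 1.15% in the middle libraries and 0.745, 0.623, 0.584 and 0.510% in the high libraries. The middle libraries lay close together and above all others, and every high library lay above every indoor library. The rule picked the members from these same libraries and favours a share above that of the indoor libraries, so this order is a description. Summed scaled FPKM was 1475 ± 192 in indoor, 5811 ± 509.6 in middle and 5461 ± 376 in high plants (SD, n = 4 each), and on this scale the middle and high libraries overlapped. In bulk samples more RNA per cell and more cells with the RNA cannot be told apart.

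**Figure D3:**
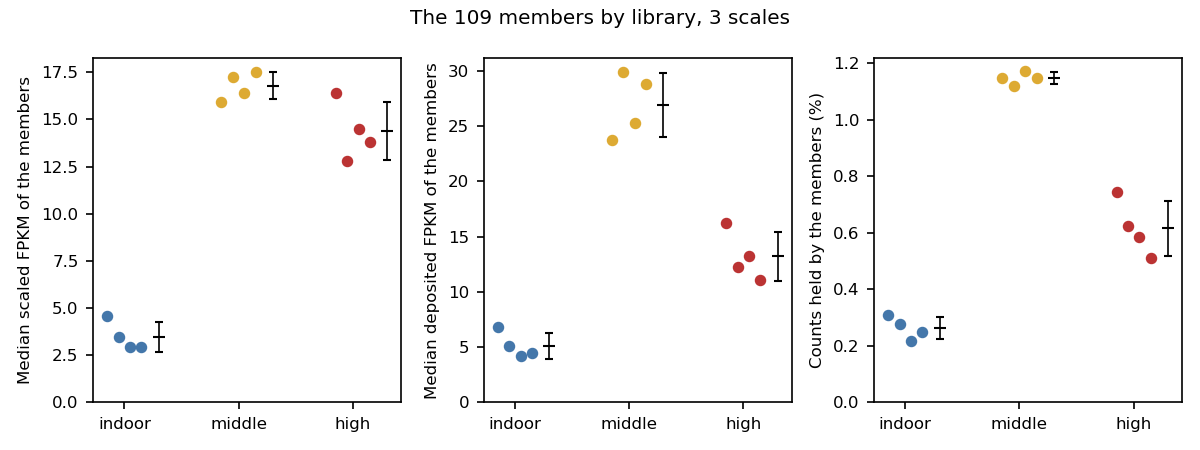
Points are libraries by group, and the black marks beside them are the mean and SD of 4 libraries; the panels show the median scaled FPKM of the 109 members, their median deposited FPKM and the percent of all counts they held. The high group is near the middle group in scaled FPKM, at 14.4 ± 1.53 against 16.8 ± 0.730, and lies below it in deposited FPKM, at 13.2 ± 2.20 against 26.96 ± 2.89.

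All 109 members passed the filter of an FPKM reaching 1 in 4 or more libraries and entered a fit over 15209 genes with edgeR's quasi-likelihood test and TMM scaling, which assumes that most genes keep their level. Between middle and indoor temperature 108 members were called higher at a Benjamini-Hochberg adjusted p under 0.05, beside 19.2% of all genes tested. For high against indoor temperature 107 members passed as higher, beside 17.1% of all genes. For high against middle temperature 2 members passed, beside 30.4% of all genes in either direction, with 1 member higher, beside 15.9%, and 1 lower, beside 14.5%. The rule itself used these contrasts, so nothing is read from these counts. With library totals in place of TMM, 0 members passed as higher and 76 as lower for high against middle temperature. Over all 15209 genes tested, 505 passed as higher and 9562 as lower with library totals. The median log2 fold change of the members was 2.03 between middle and indoor, 1.98 between high and indoor and -0.19 between high and middle temperature, against -0.02, -0.04 and 0.0033 over all genes tested. The standard error of a member's log2 fold change between high and middle temperature had a median of 0.28.

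Library by library, most members were separated from indoor temperature. The rule on group means favours this, and favours overlap of middle and high libraries, so the counts below are a description. In scaled FPKM every middle library lay above every indoor library for 105 members, beside 20.5% of all genes tested, and every high library lay above every indoor library for 101, beside 16.3%. The middle and high libraries overlapped for 99 members and for 68.9% of all genes. Every high library lay above every middle library for 3 members, beside 15.9%, and every middle library above every high library for 7, beside 15.2%. In deposited FPKM the middle libraries all lay above the high ones for 65 members, beside 54.9% of all genes tested, and the high libraries all above the middle ones for 0 members, beside 3.08%.

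Most of the 6 members with the largest M/I had a low level at indoor temperature. Spipo8G0014800.v2 led with an M/I of 12.05. Its scaled FPKM was 0.755, 0.598, 0.462 and 0.109 in the indoor libraries, 12.96, 9.52, 12.5 and 10.3 in the middle libraries and 14.7, 13.3, 16.9 and 11.8 in the high libraries. It was close to silent at indoor temperature, and its middle and high libraries overlapped. Spipo24G0011000.v2 had a count of 0 in all 4 indoor libraries, 38, 111, 49 and 93 counts in the middle libraries and 57, 37, 25 and 25 counts in the high libraries. Against a floor of 12 counts in each indoor library it was at least 4.80-fold higher at middle and at least 4.13-fold higher at high temperature. Its few counts leave the level at either raised temperature uncertain.

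Spipo5G0031500.v2 had scaled FPKM of 2.33, 1.91, 1.56 and 2.90 in the indoor libraries, 25.99, 24.4, 19.1 and 17.8 in the middle libraries and 33.1, 18.8, 23.8 and 37.1 in the high libraries, an M/I of 8.36 and an H/I of 10.7. The high libraries spread on both sides of the middle ones. Spipo2G0071100.v2 stood at 1.84, 2.00, 0.439 and 1.26 in the indoor libraries, 18.9, 12.7, 14.3 and 12.1 in the middle libraries and 11.9, 8.25, 9.30 and 19.01 in the high libraries. Spipo3G0048400.v2 had 5.33, 5.09, 2.60 and 4.06 in the indoor libraries, 24.2, 41.5, 32.7 and 34.2 in the middle libraries and 37.1, 25.5, 24.3 and 20.3 in the high libraries. For both genes all raised libraries lay above all indoor ones, and indoor replicate 3 was the lowest library.

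Spipo0G0067100.v2 combined a large ratio with a high level and stood among the 6 leading members by both measures. Its scaled FPKM was 49.5, 62.5, 22.96 and 17.4 in the indoor libraries, 322, 252, 281 and 275 in the middle libraries and 306, 259.9, 111 and 219.7 in the high libraries. The middle libraries were close together, while the indoor and high libraries each varied over more than 2-fold. Its log2 fold change between middle and indoor temperature was 2.87 ± 0.40 (SE), and between high and middle temperature it was -0.33 ± 0.37.

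**Figure D4:**
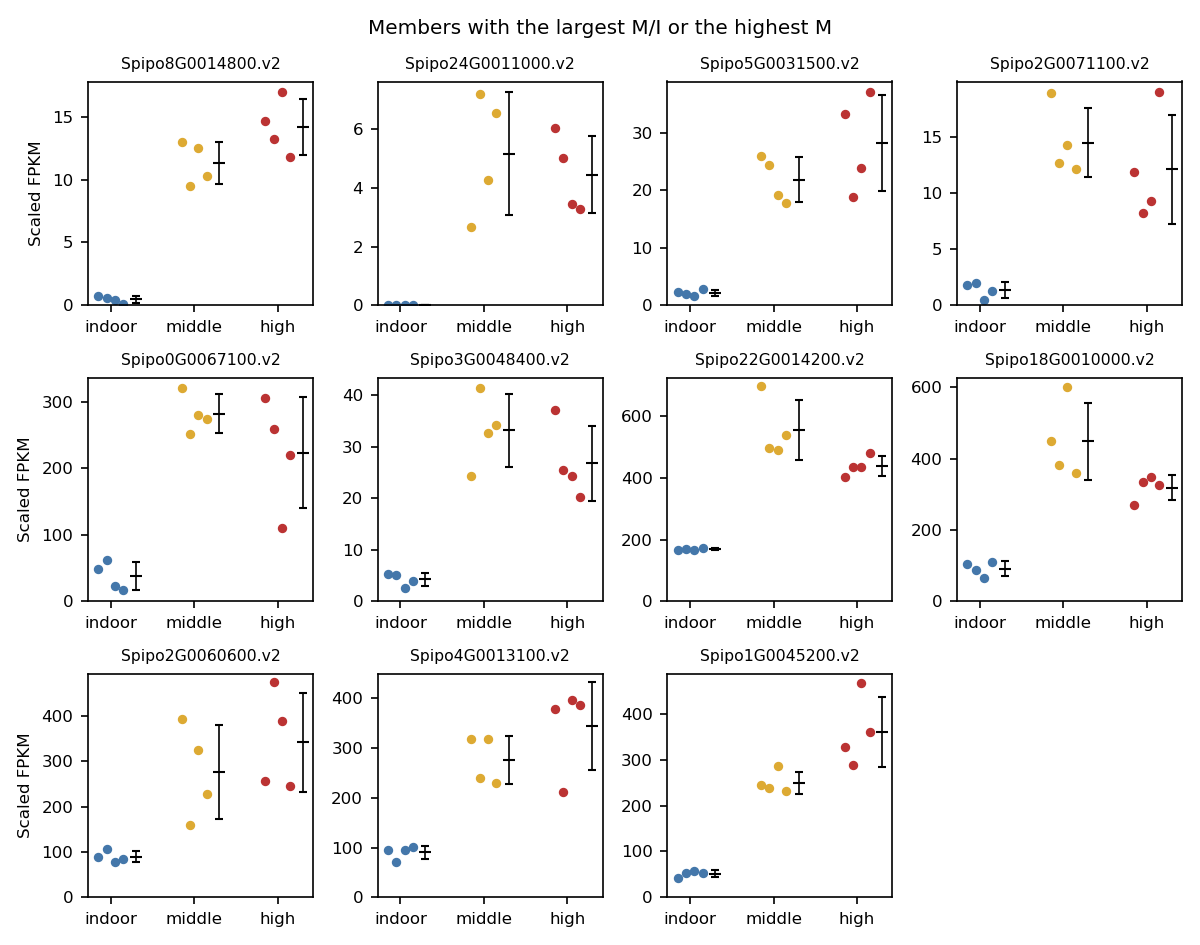
Scaled FPKM in the 4 libraries of each group for the 6 members with the largest M/I and the 6 with the highest M, 11 genes in all since Spipo0G0067100.v2 is in both; black marks are the mean and SD. In every panel the middle and high libraries lie above the indoor ones, and in Spipo1G0045200.v2 the high libraries also lie above the middle ones.

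At the upper end of abundance the members were well expressed before the step. Spipo22G0014200.v2 had the highest M, at scaled FPKM of 165, 169, 166 and 173 in the indoor libraries, 697, 497, 489 and 539 in the middle libraries and 401, 434, 436 and 479 in the high libraries. The indoor libraries agreed closely, and the middle libraries all lay above the high ones. Its log2 fold changes were 1.71 ± 0.15 between middle and indoor and -0.34 ± 0.15 between high and middle temperature (SE). Spipo18G0010000.v2 had 104, 88.6, 64.2 and 111 in the indoor libraries, 449.5, 382, 600.3 and 359.7 in the middle libraries and 269.7, 333, 348 and 325 in the high libraries, again with every middle library above every high one.

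The members ranked 4 to 6 by M had an H/M above 1. Spipo2G0060600.v2 stood at 88.4, 107, 78.7 and 85.9 in the indoor libraries, 395, 161, 325 and 227 in the middle libraries and 258, 474, 389 and 246 in the high libraries, and the middle libraries alone spanned more than 2-fold. Spipo4G0013100.v2 stood at 94.9, 70.8, 94.96 and 100.4 in the indoor libraries, 317, 241, 319 and 229.9 in the middle libraries and 379.5, 211, 397 and 386 in the high libraries. High replicate 2 lay far below the other high libraries for this gene and below all of its middle libraries. Spipo1G0045200.v2 was at 42.1, 53.8, 57.6 and 53.8 in the indoor libraries, 244, 238, 285 and 231 in the middle libraries and 327, 289, 466 and 360.0 in the high libraries. It was the member that passed the test as higher in high than in middle plants, with an H/M of 1.44 and a log2 fold change of 0.54 ± 0.17. In deposited FPKM its order turned, with means of 329 at high and 399 at middle temperature. The order turned in the same way for all 37 members with an H/M above 1.

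The member that passed as lower in high than in middle plants was Spipo12G0022100.v2, named here for its call. Its scaled FPKM was 4.65, 6.54, 5.00 and 6.26 in the indoor libraries, 30.6, 24.9, 25.3 and 27.5 in the middle libraries and 21.7, 18.7, 17.7 and 18.1 in the high libraries, and the 3 groups did not overlap. The 3 members whose high libraries all lay above their middle libraries were Spipo1G0045200.v2, Spipo2G0031400.v2 and Spipo2G0077000.v2, the last with an H/M of 1.45 at means of 7.12 ± 1.3 at high and 4.77 ± 0.59 at middle temperature (SD, n = 4 each).

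By level at middle temperature the members fell into 39 below a scaled FPKM of 10, 43 from 10 to 50, 19 from 50 to 200 and 8 above 200. The median M/I of these classes was 3.47, 3.99, 3.63 and 3.74 in that order. The rule set the same lower limit on M/I in every class, and most members stood near it. The added offset also lowers M/I most where the indoor level is low. These medians therefore cannot show whether the size of the step differed by level. None of the members was among the 100 most abundant genes tested in any group. Among the 1000 most abundant were 1 member in indoor, 18 members in middle and 13 members in high plants. The median rank of the members was 11556 of 15209 in indoor, 5675 in middle and 6437 in high plants, counted from the most abundant. The 6 members with the highest M held 26.98%, 24.6% and 27.3% of the members' counts at indoor, middle and high temperature, a similar share in each group.

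The spread between libraries of a group was not a term of the rule, though it comes from the same libraries. As the SD of log2(scaled FPKM + 0.5), its median over the members was 0.348 in indoor, 0.279 in middle and 0.367 in high plants, against 0.277, 0.246 and 0.315 over all genes tested. For genes with an M/I of at least 3 it was 0.357, 0.424 and 0.316 above the window and 0.411, 0.378 and 0.490 below it. A spread above that of all genes in indoor and middle plants was thus not particular to the members. For members with an indoor level of 5 to 20 the indoor SD had a median of 0.350, against 0.254 for genes tested at that level, and above 20 the medians were 0.340 and 0.238. For indoor levels of 1 to 5 the order turned, at 0.324 for the members and 0.350 for genes tested. Spipo2G0031400.v2 had the smallest median spread within groups, at 6.72, 11.2, 11.3 and 12.8 in the indoor libraries, 54.7, 47.9, 51.8 and 53.3 in the middle libraries and 58.2, 56.5, 63.6 and 57.6 in the high libraries, and its 3 groups did not overlap. Spipo22G0014200.v2, described above, had the next smallest.

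The members with the widest spread rest on libraries that disagree. Spipo22G0022400.v2 had scaled FPKM of 8.81, 7.05, 0.618 and 2.42 in the indoor libraries, 8.03, 36.4, 21.5 and 30.3 in the middle libraries and 58.96, 11.9, 37.6 and 27.7 in the high libraries. Middle replicate 1 lay below the highest indoor library. Spipo16G0046000.v2 was at 54.5, 34.3, 10.1 and 19.6 in the indoor libraries, 98.2, 80.4, 141 and 67.97 in the middle libraries and 237, 102, 81.7 and 53.6 in the high libraries, and its lowest high library fell just below its highest indoor library. The members whose middle and indoor libraries overlapped were Spipo22G0022400.v2, Spipo0G0034500.v2, Spipo0G0161700.v2 and Spipo3G0064800.v2. The last, with an M/I of 3.63, ranged over 127, 62.5, 9.11 and 18.8 in the indoor libraries and 286, 135, 255 and 120.0 in the middle libraries.

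The members that missed a call had low counts in the indoor libraries. Spipo1G0066000.v2 was not called between middle and indoor temperature, with counts of 83, 107, 115 and 81 in the middle libraries and 53, 0, 0 and 0 in the indoor libraries. A single indoor library held all of its indoor counts, still below every middle library, and the adjusted p of edgeR's quasi-likelihood test was 0.0974. Together with Spipo3G0094900.v2, which had counts of 50, 41, 46 and 78 in the high libraries and 0, 20, 54 and 0 in the indoor libraries, it was also not called between high and indoor temperature, at adjusted p of 0.122 for Spipo1G0066000.v2 and 0.0902 for Spipo3G0094900.v2 in the same test. In 29 of the 109 members at least 1 indoor library had under 50 counts. The median member had a mean count of 157 in indoor, 886 in middle and 515 in high plants.

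Within the indoor and high groups many members deviated in the same libraries. These deviations are not a term of the rule, but they come from the libraries that chose the members and are a description. In indoor replicate 1, 78 of the 109 members lay above their indoor mean of log2 level, or 71.6%, against 49.0% of all genes tested, and in indoor replicate 3 it was 29, or 26.6%, against 49.7%. In high replicate 1 it was 77 members, or 70.6%, against 53.99% of all genes tested. In the middle libraries the shares ran from 41.3% to 54.4% over members and all genes together. The median deviation of the members was 0.20 on the log2 scale in indoor replicate 1, -0.17 in indoor replicate 3 and 0.16 in high replicate 1. Among the genes with an M/I of at least 3 but outside the window, 36.2% of those with an H/M of at least 1.5 and 60.8% of those with an H/M of 1/1.5 or less lay above their indoor mean in indoor replicate 1. Without indoor replicate 1 the rule was met by 134 genes, and without indoor replicate 3 by 96. The part of single libraries in the members' values was not tested beyond these figures.

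**Figure D5:**
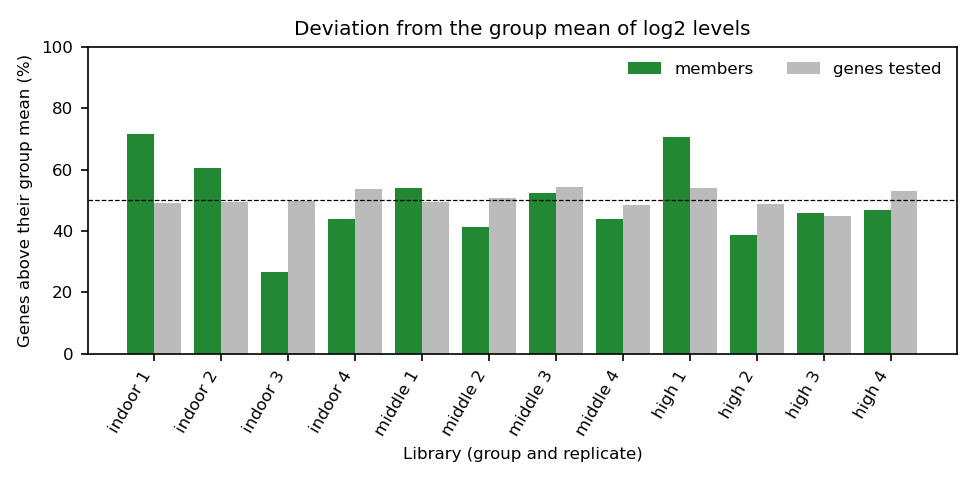
Bars give, for each library, the percent of genes whose log2 level lay above the mean of their own group, for the 109 members in green and for the 15209 genes tested in grey; the dashed line marks 50%. The members stand at 71.6% in indoor replicate 1, 26.6% in indoor replicate 3 and 70.6% in high replicate 1, and nearer to the genes tested in most other libraries.

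The identifiers carry a number before the letter G and an order after it, and both were compared with all genes. Members were found under 29 of 33 numbers. The numbers 0, 1 and 4 held 16, 12 and 10 members, which is 14.7%, 11.0% and 9.17% of the members, against 8.88%, 6.80% and 6.33% of the genes tested. Other numbers went the other way, such as 6 and 14 with 1.83% and 0.917% of the members, against 3.75% and 3.12%. Numbers 17 and 19 held 0 members, against 2.72% and 1.99% of the genes tested. Most numbers held few members, and the differences were not tested. Members lay next to each other in the order of identifiers in 4 pairs and in no longer run. In the pair of Spipo1G0045900.v2 and Spipo1G0046000.v2 the first had scaled FPKM of 16.5, 17.3, 7.89 and 9.59 in the indoor libraries, 42.00, 46.6, 41.6 and 46.8 in the middle libraries and 76.8, 39.5, 53.1 and 47.3 in the high libraries. The second had 10.1, 6.95, 5.10 and 4.24 in the indoor libraries, 29.9, 30.1, 26.3 and 30.8 in the middle libraries and 36.1, 25.5, 27.9 and 29.7 in the high libraries. Both were highest in high replicate 1, and the correlation of their deviations from the group means over the 12 libraries, which share sequencing depth, was 0.81.

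Spipo18G0010000.v2 was far above its neighbour Spipo18G0010100.v2, which had 1.13 ± 0.21 in indoor, 5.82 ± 1.9 in middle and 3.97 ± 1.4 in high plants (SD, n = 4 each). Spipo26G0011000.v2 had 48.8 ± 5.7 in indoor, 161 ± 9.9 in middle and 129 ± 27.7 in high plants, and its neighbour Spipo26G0011100.v2 had 1.13 ± 0.62, 4.97 ± 1.9 and 3.25 ± 0.86 in the same order. The genes of each of these pairs had H/M values of 0.712 and 0.708, and of 0.803 and 0.685. Spipo0G0143100.v2 and Spipo0G0143200.v2 formed the last pair, with M of 9.40 and 14.6 and M/I of 3.37 and 3.68. The correlation of deviations from the group means was 0.30 for the pair under number 18, 0.45 for the pair under number 26 and 0.60 for the pair under number 0. No such correlation is given here for members that are not neighbours, and many members deviated in the same indoor and high libraries. The correlations therefore cannot show that neighbours varied together more than other members. Whether reads of neighbours, overlapping genes or near-identical copies were shared between them was not tested, since the sources used here name neither the genome build nor the strand setting of the counting. Of 182 other genes tested that stood next to a member, 59 passed edgeR's quasi-likelihood test as higher in middle than in indoor plants, or 32.4%, against 19.2% of all genes tested.

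Transcript length, read from the counts per FPKM of each gene and set relative to the median of all genes tested, had a median of 0.921 and quartiles of 0.451 and 1.46 over the members. Genes with an M/I of at least 3 outside the window had medians of 0.919 above it and 0.845 below it. A median below that of all genes was thus not particular to the members. A relative length under 0.5 was found for 31 of 109 members, or 28.4%, against 18.6% of all genes tested. The shortest was Spipo5G0023100.v2 at 0.149, which was also the member nearest to the limit on M/I. Its counts were 130, 107, 92 and 120 in the indoor libraries, 621, 262, 372 and 439 in the middle libraries and 146, 233, 75 and 264 in the high libraries.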

How the data were processed

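Leaf RNA from 12 libraries in 3 groups of 4 was analysed, with groups and replicate numbers taken from the labels. The authors deposited 1 table with FPKM and an estimated count for each of 18099 genes and each library. Per the submitters' processing notes, the tools were StringTie 1.3.4d, HISAT2 2.0.4, cutadapt 1.9, edgeR, DESeq2 and UMI-tools, with no role or order stated; the sources used here give no genome build, annotation or strand setting. The deposited estimated counts were whole numbers and were used as deposited. In 2903 genes with over 1000 counts in every library they were proportional to the deposited FPKM within 0.0757%, and the commonest count above 0 was 4, so single fragments appear to weigh several counts.

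FPKM was scaled as the report describes, since the median FPKM of commonly expressed genes differed between groups. Estimated counts of the 15209 genes whose FPKM reached 1 in 4 or more libraries were tested with edgeR 4.0.16 (R 4.3.3, TMM, quasi-likelihood test, all 12 libraries in 1 fit), with Benjamini-Hochberg adjustment over these genes. DESeq2 1.42.0, limma 3.58.1, other scalings, offsets of the rule and fits without each library were alternatives. As the labels name no separate cultures, a p-value here reflects only how much these samples vary. The SE of a log2 fold change was its absolute size divided by the square root of the F statistic of the quasi-likelihood test. Floors cover counting error only. Counts of replicates differed by more than sampling noise, so no pair was treated as 1 library deposited under 2 names; this does not tell repeat preparations of a sample from separate samples.

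The members, lists and rules were chosen with earlier results of these data known. The genes named are the 6 members with the largest M/I, the 6 with the highest M, members at 0 in all indoor libraries, the 2 genes on each side of each limit, neighbouring pairs, and the 2 members with the smallest and the 2 with the largest spread; others are named for a call or an overlap after their values were seen. Gene lists, marker genes and promoter motifs were not used here, because no table pairs the identifiers with names or sequences.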

Additional observations from a re-analysis of the deposited data

Results flagged for a closer look

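In 2 of 78 sets of 4 libraries, 1 library lay far from the other 3 by Dixon's criterion, which chance meets in about 1 set in 20. The sets were those of the named members and of the summed level of the members. Spipo4G0013100.v2 had a scaled FPKM of 211 in high replicate 2, against 379.5 to 397 in the other high libraries, a gap of 0.907 of the range. Spipo18G0010100.v2 had 0.820 in indoor replicate 1, against 1.210 to 1.245 in the other indoor libraries, a gap of 0.917 of the range.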

How the results depend on the processing

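The rule was met by 109 genes, by 108 with TMM scaling (104 shared with the members), by 79 with FPKM as deposited (25 shared), by 114 with an offset of 0.1 and by 89 with an offset of 1. Other limits gave 429 genes at an M/I of 2, 44 at 4, 59 in a narrower H/M window, 194 within an H/M of 2, 129 at a level of 1 and 74 at 10. Without each library in turn it was met by 96 to 134 genes, and 51 members were kept in all 12 fits. Members called higher numbered 102 to 108 between middle and indoor and 100 to 107 between high and indoor temperature in those fits. For high against indoor temperature they numbered 107 with all libraries, 93 with library totals and 92 with limma at either offset. The rule used these contrasts, so the counts say nothing about stability. Between high and middle temperature edgeR's quasi-likelihood test called 1 member higher and 1 lower, and 3 and 9 had an unadjusted p under 0.05. Without each library 0 to 2 were called higher and 0 to 4 lower, with 0 higher without middle replicates 1, 2 or 4 or high replicates 3 or 4, 0 lower without middle replicate 1 and 4 lower without high replicate 1. DESeq2 called 2 higher and 4 lower. Called higher were 0 with library totals, upper-quartile scaling and limma at either offset, with 0, 1, 0 and 0 at an unadjusted p under 0.05. Called lower were 76 with library totals, 10 with upper-quartile scaling, 84 and 80 with limma on log2 FPKM at offsets of 1 and 0.1, 2 with a replicate block and 3 with counts divided by 4, an alternative chosen after seeing the data. Among all genes tested, 9562, 2849, 9795 and 9749 were called lower with library totals, upper-quartile scaling and limma at offsets of 1 and 0.1. Over all genes, calls between high and indoor temperature numbered 4992, against 9869 with library totals and 9950 and 10019 with limma at offsets of 1 and 0.1. Between high and middle temperature they numbered 4616, against 10067, 10331 and 10262. Library totals moved the median log2 change of all genes to -0.73 and -0.82 in these comparisons, and other causes were not tested. Without each library, calls over all genes ran from 4633 to 5857 for middle against indoor, from 4301 to 4866 for high against indoor and from 3246 to 4746 for high against middle temperature. On FPKM as deposited, all 109 members had an H/M below 1, including the 37 with an H/M above 1 in scaled FPKM. Among these, log2 H/M of Spipo1G0045200.v2 was -0.28 in place of 0.53. The replicate block changed the calls over all genes to 5072, 4572 and 3957, and deviations of same-numbered libraries correlated at -0.28 to 0.27, with 3 of 12 correlations over 0.1, so the criterion that every pair exceed 0.1 was not met and the numbers were not taken to pair the libraries. Low counts at indoor temperature limit the ratios of the weakest members.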
